A study of Homo sapiens with 8 samples.

Results

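RNA bound to the mitotic spindle was compared with whole-cell RNA in HCT116 cells of the STAU1-knockout genotype (STAU1-KO). HCT116 is a human line derived from a colorectal carcinoma, and STAU1 encodes Staufen1, which binds double-stranded RNA. The comparison rests on 2 STAU1-KO spindle libraries and 2 STAU1-KO input libraries, input being RNA of the whole cell extract. The 2 spindle and 2 input libraries of WT HCT116 cells entered the same model, so that they share in its estimate of the spread, and they were also used to set the change in STAU1-KO cells against that in WT cells. Cells of all 4 groups were arrested late in G2 with RO-3306, a CDK1 inhibitor, for 16 h, then released into 100 µM taxol for 15 min, and mitotic cells were shaken off. Spindles were pelleted through glycerol after lysis in Triton X-100, and ribosomal RNA was depleted before stranded sequencing. All 4 STAU1-KO libraries carry the same clone code, so genotype and clone cannot be told apart. The replicates are described as biological, with nothing on cultures or days, and p-values measure the spread between these libraries.

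The authors' table gives FPKM, the fragments per kilobase of gene scaled by a factor for each library, for 17788 genes. A gene was a member of the comparison if its FPKM was at least 1 in 2 or more of the 4 STAU1-KO libraries, which 15803 genes met and 1985 did not. Of the members, 1585 passed only through the spindle libraries and 451 only through the input libraries, and for these the filter itself selects genes that differ. Each change is the mean log2(FPKM + 1) in spindle minus that in input, which understates the change of low genes. A gene was called when its adjusted p in limma was under 0.05 (two-sided, Benjamini-Hochberg over all 15803 members).

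A mitotic spindle is an array of microtubules that carries motors, centrosomes and kinetochores and is attached to the condensed chromosomes. Taxol stabilises microtubules, which lets the array be pelleted from a cell lysate. RNA is known to be among the material that such pellets hold, and the mRNAs of some centrosome proteins are known to lie at the spindle poles of human cells. Since each library is a sample of the RNA in its own fraction, values are relative, and the number of molecules per cell was not measured. Summed FPKM was 287393 and 298287 in the STAU1-KO spindle libraries and 440030 and 424573 in the STAU1-KO inputs. An unchanged FPKM is thus a larger share of the spindle sum. A gene with a small negative change can hold as large a share of spindle as of input.

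The listed genes held 9.69 M and 6.84 M reads in the STAU1-KO spindle libraries and 12.8 M and 14.6 M in the input libraries. Across the member genes, the 2 spindle libraries correlated with r = 0.969 and the 2 input libraries with r = 0.985, as a description over 15803 genes that are not independent. All 7 epithelial markers were listed, with a summed FPKM of 660 and 672 in spindle and of 1147 and 1099 in input. No marker of blood (0 of 5) or endothelium (0 of 3) was listed. Of the fibroblast markers 1 of 5 was listed, COL1A1, at 2.65 and 3.19 FPKM in spindle and 0.753 and 0.847 in input, and of the neuron markers 1 of 2, SYT1, at 10.2 and 8.95 in spindle and 13.8 and 13.7 in input. The part of such markers in the results was not tested, and in bulk samples fewer cells of a type and less RNA per cell cannot be told apart.

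The targeted gene came first. STAU1 (ENSG00000124214, chromosome 20) had 9.83 and 9.83 FPKM in the STAU1-KO spindle libraries, against 4.59 and 4.88 in STAU1-KO input. In WT cells it had 11.5 and 16.2 FPKM in spindle and 31.9 and 28.5 in input. Both STAU1-KO input libraries lay far below both WT inputs, while reads of the gene were still present. Within STAU1-KO cells STAU1 RNA rose by 0.92 (SE 0.16, limma adjusted p = 0.00441) and kept its call when any 1 of the 4 STAU1-KO libraries was left out. Its paralog STAU2 had 5.00 and 5.37 FPKM in spindle and 4.02 and 4.21 in input and was not called (0.27, limma adjusted p = 0.166, or 0.0233 in the STAU1-KO libraries alone). Which part of STAU1 the remaining reads cover was not tested, because the files give 1 value per gene.

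Spindle and input differed in 8509 of the 15803 member genes, with long mRNAs and many noncoding loci on the spindle side and short mRNAs of ribosomes, mitochondria and small complexes on the input side. In limma 3785 genes were called higher in spindle (24.0% of members) and 4724 lower (29.9%). A fit of the 4 STAU1-KO libraries alone, without the spread between WT libraries, called 5076 and 6164, and its p is given beside genes that it called and the model of 8 libraries did not. More than 2-fold changes were found in 1484 of the higher and 2181 of the lower genes, and more than 4-fold changes in 169 and 278. Leaving out 1 STAU1-KO library lowered the counts to between 2160 and 2360 higher and between 3067 and 3287 lower, depending on the library. Of the genes above, 1796 were called higher and 2808 lower in all 4 of those fits as well. The split depends on how libraries are scaled. The median of all members was -0.07 with the authors' scaling, 0.18 with equal upper quartiles (5159 higher, 3303 lower) and 0.48 with equal protein-coding sums (6689 higher, 1827 lower). The authors' deposited table of the same comparison, in which 15135 members have an adjusted p, calls 3207 higher and 4541 lower. Of these, 3040 and 4293 were called in the same direction here, and 0 in the opposite one.

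The classes of RNA divided the libraries in a different way from the counts of genes. MicroRNA loci made up 13.3% and 14.2% of summed FPKM in the spindle libraries, against 1.05% and 1.05% in input. The class misc_RNA, which holds 7SK and some 7SL RNAs, made up 6.97% and 7.36% in spindle and 22.3% and 21.6% in input. Both classes were separated without overlap, and a few loci carried each of them. The microRNA share lay almost wholly in MIR3687-2, with 8.08% and 8.96% of spindle and 0.397% and 0.377% of input FPKM, and in MIR3648-2, with 4.49% and 4.56% of spindle and 0.301% and 0.305% of input FPKM. RN7SK, which restrains the elongation factor P-TEFb, held 1.41% and 1.57% of spindle FPKM and 12.3% and 11.8% of input FPKM. Ribosomal RNA, left over after depletion, held 6.60% and 6.25% of FPKM in spindle and 0.853% and 0.750% in input. By recovered reads, ribosomal RNA took 11.1% and 10.9% of spindle and 1.59% and 1.41% of input, and protein-coding genes 80.2% and 79.9% of spindle and 89.3% and 89.8% of input. With 2 libraries against 2, an exact two-sided permutation test cannot go below p = 0.33, so these shares carry no test.

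**Figure D1:**
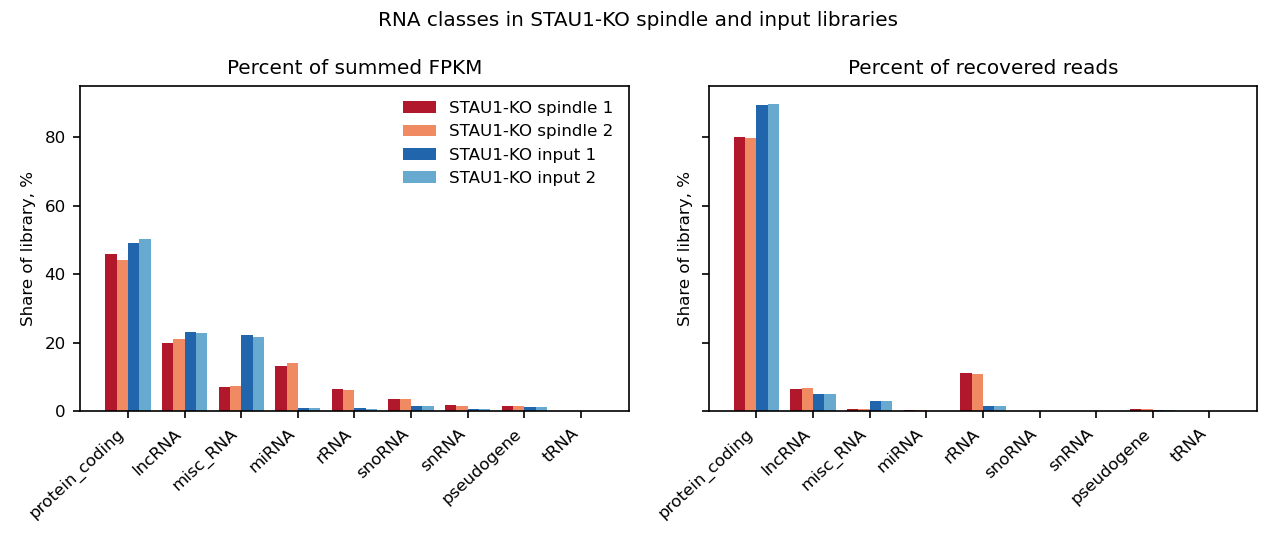
Share of each annotated RNA class (x axis) in the 4 STAU1-KO libraries, as percent of summed FPKM (left) and percent of recovered reads (right), with 1 bar per library, spindle in red tones and input in blue tones. MicroRNA loci and ribosomal RNA are high in both spindle bars and misc_RNA in both input bars, and microRNA loci almost vanish on the read scale, where locus length does not count.

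The table of genes reads differently once each gene counts once. Of 11391 protein-coding members, 2253 rose (19.8%) and 4265 fell (37.4%), with a median of -0.22. Coding genes thus lay below the median of all members of -0.07, and this held under equal upper quartiles (0.04 against 0.18) and equal coding sums (0.36 against 0.48). Long noncoding RNAs and pseudogenes lay on the other side. Of 1932 lncRNA members, 725 rose and 204 fell (median 0.46), and of 1181 pseudogenes 536 rose and 169 fell (median 0.65). With 1 STAU1-KO library left out, 412 to 447 lncRNAs and 344 to 370 pseudogenes were still called higher, and 1231 to 1384 coding genes higher and 2810 to 2985 lower. Of these members, 502 lncRNAs and 382 pseudogenes had passed the filter only through spindle, against 105 and 68 only through input. Among the 178 pseudogenes with a mean FPKM of at least 5 the median was -0.22, whereas 267 lncRNAs at that level had a median of 0.54. All 7757 members at that level had a median of -0.36, and the 6977 coding genes among them one of -0.40.

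Small RNA classes had positive medians, but their shares of genes called higher, from 19.1% of microRNA loci to 23.7% of snoRNAs, were not above the 24.0% of all members. Of 259 snRNA members 58 rose and 3 fell (median 0.47), and of 279 snoRNA members 66 rose and 20 fell (median 0.39). With a STAU1-KO library left out, 28 to 42 snRNAs and 37 to 45 snoRNAs were called higher. Of 455 microRNA loci 87 rose and 30 fell (median 0.49, 46 to 55 higher with a library left out), and of 275 misc_RNA loci 57 rose and 24 fell (median 0.37, 29 to 35 higher). Through the spindle libraries alone 98 microRNA loci, 54 misc_RNA loci, 53 snRNAs and 28 snoRNAs had passed the filter, against 23, 14, 11 and 3 through input alone. Of the 45 misc_RNA loci with a mean FPKM of at least 5, 10 rose and 12 fell. Among 21 tRNA members, all of them mitochondrial, 3 rose and 4 fell. Of the 10 rRNA members 0 rose and 5 fell, although RNA28S5, the 28S rRNA, had the largest share of reads in spindle. RNA28S5 had 18626 and 18217 FPKM in spindle and 2750 and 2464 in input, without overlap, and was not called (2.82, SE 1.15, limma adjusted p = 0.0804, or 0.000127 in the STAU1-KO libraries alone).

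The 10 protein-coding genes with the largest increases included several long ones and a few short ones. SRRM2 (chromosome 16), a scaffold of nuclear speckles, had 96.3 and 105 FPKM in spindle and 19.9 and 18.6 in input, a change of 2.33 (SE 0.17, limma adjusted p = 0.000304). POLR2A (chromosome 17), the large subunit of RNA polymerase II, had 89.7 and 89.5 FPKM in spindle and 18.9 and 17.1 in input, a change of 2.25 (SE 0.28, limma adjusted p = 0.00124). KMT2D, a histone H3 lysine 4 methyltransferase, had 19.5 and 20.2 in spindle and 3.80 and 3.40 in input (2.18). All 3 genes were about as high in one spindle library as in the other, and no input library came near. The same held for EP400, a chromatin remodeller, with 19.9 and 20.0 FPKM in spindle and 3.75 and 3.40 in input (2.20). AHNAK2, a very large scaffold protein, had 27.2 and 30.8 FPKM in spindle and 5.46 and 5.56 in input (2.20), and EPPK1, which encodes epiplakin, 21.9 and 23.5 in spindle and 4.51 and 4.38 in input (2.12). The remaining genes of the first 10 were less abundant, namely C20orf96 (2.31, coding length 1092 nt), ANKRD18A (2.27), IFNE, an epithelial interferon (2.14, coding length 627 nt), and GRIN2C, a glutamate receptor subunit (2.10). IFNE and GRIN2C were under 1 FPKM in both inputs and so passed the filter only through spindle, where they are high. All 10 were called in each fit that left out a STAU1-KO library, and ANKRD18A has a near-identical paralog with which it may share reads.

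The largest decreases were in short mRNAs. MIF (chromosome 22), a secreted cytokine, had 7.43 and 9.46 FPKM in spindle and 139 and 136 in input, a change of -3.88 (SE 0.23, limma adjusted p = 0.000226). ROMO1, a small mitochondrial inner membrane protein, had 5.43 and 7.30 in spindle and 67.6 and 57.6 in input (-3.12). PCBD1, an enzyme that recycles the pterin cofactor, had 7.47 and 7.20 in spindle and 61.9 and 59.8 in input (-2.89). In all 3 genes both spindle libraries lay far below both input libraries. RPLP0, which encodes a protein of the ribosomal stalk, had 70.5 and 73.7 FPKM in spindle and 590 and 582 in input (-3.01, SE 0.19, limma adjusted p = 0.000232). The other genes of the lowest 10 were RPS29 (-3.09), COX8A (-3.46) and 4 mitochondrially encoded mRNAs. All of these kept their calls with any 1 STAU1-KO library left out.

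**Figure D2:**
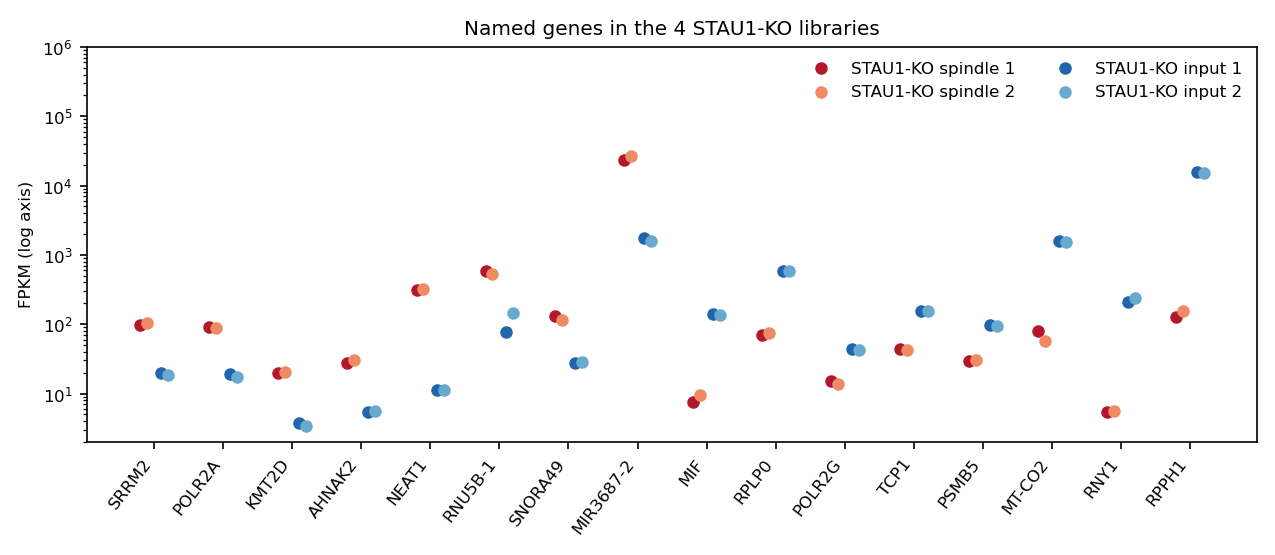
FPKM (log axis) of 16 named genes in the 4 STAU1-KO libraries, 1 point per library, spindle in red tones to the left of input in blue tones. Spindle points lie above input points for the 8 genes from SRRM2 to MIR3687-2 and below them for the 8 genes from MIF to RPPH1, and replicate points lie close together except for RNU5B-1 in input.

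Of the listed lengths and GC content, coding length ordered the protein-coding genes most. Exon and transcript counts, which are also listed, were not examined. Across 11391 genes Spearman's correlation between coding length and the change was 0.540 (Pearson's r on log2 length 0.535), as a description over genes that share the same 4 libraries. It was 0.347 for whole transcript length, 0.043 for the 3′ untranslated region (11307 genes), 0.033 for the 5′ untranslated region (11253 genes) and -0.064 for GC content. Genes were sorted by coding length into 5 bins of equal gene number. In the shortest bin, with coding lengths of 30 to 753 nt, 157 of 2284 rose (6.87%) and 1557 fell (68.2%), with a median of -0.91. In the longest bin, from 2550 to 26772 nt, 1025 of 2278 rose (45.0%) and 163 fell (7.16%), with a median of 0.35. The bins between them stood in order at -0.52, -0.24 and -0.04. Genes that encode short proteins were thus mostly lower in spindle and genes that encode long proteins higher or not called.

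The order by length was measured again in several subsets of genes. Without the ribosomal protein genes of both ribosomes and the nuclear and mitochondrial respiratory chain genes, this correlation was 0.524 over 11141 genes. Within 5 bins of mean FPKM it was 0.331 in the lowest bin, then 0.487, 0.588, 0.676 and 0.723 in the highest. With protein-coding sums set equal this correlation was 0.563, and with voom weights on recovered reads 0.538. In WT cells the same genes gave 0.518. Within bins of coding length the 3′ untranslated region gave correlations between -0.115 and 0.075.

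Exceptions stood at both ends, and were chosen after their values were seen. In the longest bin of coding length KIF5B, the heavy chain of conventional kinesin, had 44.2 and 36.1 FPKM in spindle and 101 and 101 in input (-1.32), but lost its call without any 1 of the 4 STAU1-KO libraries (limma adjusted p 0.0608 to 0.105). DDIAS, a factor that protects from apoptosis after DNA damage, fell by 1.39 and was called in all 4 of those fits. In the shortest bin, the highest were IFNE and SPINK9, a protease inhibitor (2.01), with TMEM212 at 1.53. All 3 passed the filter only through spindle.

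**Figure D3:**
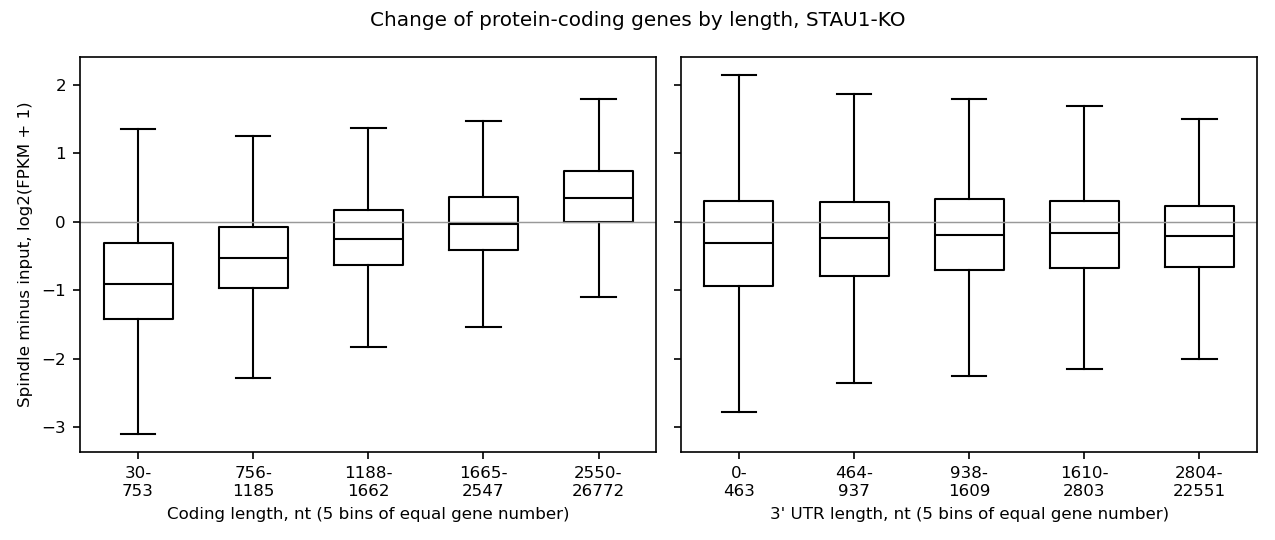
Spindle minus input change on the log2(FPKM + 1) scale of protein-coding genes in 5 bins of coding length (left) and of 3′ untranslated length (right), in STAU1-KO cells, with boxes at the quartiles, lines at the medians and whiskers to 1.5 interquartile ranges. Medians climb from -0.91 to 0.35 with coding length, while those by 3′ untranslated length stay between -0.30 and -0.16.

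Ribosomal protein mRNAs had the lowest median of the 40 gene lists. Of 84 ribosomal protein genes 0 rose and 75 fell, with a median of -1.80 beside -0.07 over all members, and 61 to 63 fell with a STAU1-KO library left out. The mRNAs of this family are known to begin with a C and a run of pyrimidines at the cap, by which their translation is controlled together. Windows of 30 bases around the annotated start were read from RefSeq (GRCh38.p14) for the ribosomal protein genes and for the genes with the largest increases, to show this start where it is present. The first 5 transcribed bases are in capitals, and RPLP0, RPS12 and RPL12 have a C followed by 4 bases that are each C or T, whereas RPS29 and the genes that rose do not.
RPS29, chr14:49598696-49598725, minus strand: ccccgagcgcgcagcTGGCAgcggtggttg
RPLP0, chr12:120201097-120201126, minus strand: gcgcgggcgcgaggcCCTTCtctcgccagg
RPS12, chr6:132814554-132814583, plus strand: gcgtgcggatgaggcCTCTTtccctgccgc
RPL12, chr9:127451392-127451421, minus strand: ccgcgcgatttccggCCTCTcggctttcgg
SRRM2, chr16:2752623-2752652, plus strand: cgcacgcagttagtcGTGCTgacgtgcagc
C20orf96, chr20:290736-290765, minus strand: gaccgagacgctggcGAAAGcatcgggtct
ANKRD18A, chr9:38620582-38620611, minus strand: gcatcgcggggactcACTCGgtctgagagt
POLR2A, chr17:7484351-7484380, plus strand: ttcagcgagttcgctGCTCAgaagcgccga

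The start was searched on the sense strand only, at the annotated start, and 1429 of all 35116 promoters hold it (4.07%). Of the tested coding genes 8710 matched a promoter by symbol, and 665 of these hold it (7.63%), among them 48 of 68 matched ribosomal protein genes (70.6%). The 48 had a median change of -2.01 and the other 20 a median of -1.41. Outside the ribosomal proteins the difference was small. The 617 such genes with the start had a median of -0.29, and 8025 without it -0.21. In the shortest bin of coding length these medians were -1.16 (121 genes) and -0.94 (1427 genes), and in the middle bin the order was reversed (-0.15 over 115 genes and -0.26 over 1647). A gene can start at several bases, and the annotated base was not checked against these libraries.

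Within the ribosomal proteins the values were uniform between replicates. RPS12 had 184 and 189 FPKM in spindle and 1406 and 1360 in input (-2.88), and RPL12 51.2 and 51.8 in spindle and 387 and 374 in input (-2.86). RPS29 had 17.0 and 19.8 in spindle and 167 and 161 in input (-3.09, SE 0.15, limma adjusted p = 0.000211). Ribosomal protein genes have many processed pseudogenes that may share their reads. The 113 tested ribosomal protein pseudogenes were split, with 35 called higher and 40 lower (median 0.05), of which 21 to 24 and 31 to 32 were called with a library left out. The other 1068 pseudogenes had 501 called higher and 129 lower (median 0.67).

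The other lists of protein synthesis and turnover divided. Beside 37.4% of coding genes, larger shares fell of translation factors, the proteasome and the TRiC chaperonin. Smaller shares fell of aminoacyl-tRNA synthetases and ribosome biogenesis factors. Of 59 translation initiation and elongation factors 31 fell and 6 rose (median -0.71), with 20 to 22 lower and 2 higher when a STAU1-KO library was left out, and under equal coding sums 16 fell and 16 rose. EIF4H, a helper of the cap-binding helicase, had 36.9 and 37.9 FPKM in spindle and 171 and 169 in input (-2.15, limma adjusted p = 0.000304). EIF4G3, a long scaffold of the cap-binding complex, rose by 0.99, and EIF1B, a small initiation factor with a coding length of 342 nt, by 0.82. Of 20 aminoacyl-tRNA synthetases 5 fell and 0 rose (median -0.26), or 1 with a library left out, and of 48 ribosome biogenesis factors 9 fell and 2 rose (18.8% lower, median -0.27), or 4 lower with a library left out. Of 45 proteasome subunits 30 fell and 1 rose (median -0.85, 20 to 21 lower with a library left out), and under equal coding sums 15 fell and 6 rose. PSMB5, a catalytic subunit, had 29.9 and 30.1 in spindle and 95.8 and 93.6 in input (-1.62). The subunit that rose was PSME4, a large activator that caps the core, at 27.9 and 25.1 FPKM in spindle and 11.3 and 12 in input (1.12, SE 0.16, limma adjusted p = 0.00222). The 8 subunits of TRiC, the chaperonin that folds tubulin and actin, all had negative changes, from -1.83 to -0.61, and 4 of them fell, or 2 with a library left out. TCP1 had 43.3 and 42.0 in spindle and 153 and 156 in input (-1.83), and CCT7 62.6 and 60.5 in spindle and 182 and 176 in input (-1.52).

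Nuclear genes for mitochondrial proteins were mostly lower as well. Of 79 respiratory chain genes 70 fell and 1 rose (median -1.38, 58 to 61 lower with a library left out), and of 74 mitochondrial ribosomal proteins 63 fell and 1 rose (median -1.17, 50 to 51 lower). Under equal coding sums 55 of the respiratory chain list and 42 of the mitochondrial ribosomal list fell. COX8A, a subunit of cytochrome c oxidase, had 26.2 and 20.7 FPKM in spindle and 279 and 253 in input (-3.46). UQCR11, a small subunit of complex III, fell by 2.68. MRPL14 fell by 2.05. Among 17 glycolysis enzymes of the cytosol 5 fell (29.4%, beside 37.4% of coding genes) and 1 rose, with 4 lower in each fit that left out a library, and the list's median of -0.67 turned to 0.03 under equal coding sums, where 3 fell and 3 rose. TPI1, triosephosphate isomerase, had 69.0 and 65.7 in spindle and 323 and 320 in input (-2.24, limma adjusted p = 0.000636).

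Within RNA polymerase II only 1 subunit, a long one, was called higher, and most others were called lower. Of its 12 subunits POLR2A rose and 10 fell, with a list median of -1.32, and 8 fell with a library left out. POLR2G had 15.0 and 13.6 FPKM in spindle and 44.5 and 42.2 in input (-1.54, SE 0.10, limma adjusted p = 0.000243). POLR2K, the smallest of the named subunits with a coding length of 204 nt, had 10.3 and 8.25 in spindle and 36.1 and 40.0 in input (-1.93). POLR2A has a coding length of 5913 nt. The split held with upper quartiles set equal, where 1 rose and 10 fell, while equal coding sums gave 2 and 9.

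Many genes of chromatin regulation were higher in spindle. Of 41 enzymes that add or remove histone methyl groups 24 rose and 7 fell (median 0.62, 18 to 19 higher with a library left out). Of 32 chromatin remodellers 19 rose and 3 fell (median 0.59, 11 to 14 higher with a library left out). KMT2C, a histone H3 lysine 4 methyltransferase, had 14.7 and 15.2 FPKM in spindle and 3.61 and 3.79 in input (1.76, SE 0.08, limma adjusted p = 0.000211). CHD9, a remodeller with a chromodomain, had 9.59 and 10.2 in spindle and 3.19 and 3.19 in input (1.38). The lowest was SETD7, a lysine methyltransferase of 1101 nt coding length, with 2.37 and 2.29 in spindle and 13.0 and 13.1 in input (-2.07). SMARCD2, a subunit of the SWI/SNF complex, fell by 1.20. Of the 44 Mediator and coregulator genes 13 rose and 13 fell, or 9 to 11 and 8 to 10 with a library left out, and the balance depends on the scaling, with 21 and 8 under equal upper quartiles and 24 and 3 under equal coding sums. MED12, of the kinase module, rose by 1.25, and MED18, of the head module, fell by 1.28. Of 321 zinc finger genes with a ZNF symbol 96 rose and 45 fell (median 0.17), or 44 to 49 and 23 to 28 with a library left out, and 189 and 11 under equal coding sums.

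Genes for large structural and surface proteins had a larger share called higher than the 19.8% of coding genes. Of 28 giant linkers of the cytoskeleton 12 rose and 0 fell (median 0.84, 7 higher with a library left out). Of 38 laminins, plexins and large surface receptors 22 rose and 3 fell (median 0.66, 14 to 16 higher with a library left out). LRP1, an endocytic receptor, had 4.41 and 5.02 FPKM in spindle and 0.633 and 0.667 in input (1.79, SE 0.12, limma adjusted p = 0.000232), and passed the filter only through spindle. PLXNB1, a semaphorin receptor, had 14.4 and 16.0 in spindle and 5.22 and 5.35 in input (1.37). FLNA, a filamin, was not called (0.19, limma adjusted p = 0.737, or 0.0207 in the STAU1-KO libraries alone).

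Genes for the mitotic apparatus itself differed between lists, which were not compared at matched coding length. Of 53 centrosome and centriole genes 22 rose and 4 fell (median 0.24, 9 to 12 higher with a library left out), and under equal coding sums 39 rose and 0 fell. NINL, a ninein-like protein that anchors microtubules, had 5.21 and 5.32 FPKM in spindle and 2.12 and 2.10 in input (1.01, SE 0.10, limma adjusted p = 0.000584). NEDD1, which recruits gamma-tubulin, had 6.98 and 6.99 in spindle and 12.4 and 13.3 in input (-0.80, limma adjusted p = 0.00174). Of 8 mRNAs that other work has placed at centrosomes 2 rose and 0 fell, beside 19.8% of coding genes higher and 37.4% lower. At 2 of 8, the share higher lay close to the 24.0% of all members, and 8 genes are too few to tell these shares apart. PCNT, pericentrin, had 27.0 and 28.2 in spindle and 10.7 and 10.2 in input (1.32), but its call was lost without any 1 of the 4 STAU1-KO libraries (limma adjusted p 0.0593 to 0.0715). ASPM, a spindle pole protein, had 33.9 and 28.7 in spindle and 18.6 and 21.4 in input (0.62) and kept its call in 2 of those 4 fits (limma adjusted p 0.0222 to 0.067).

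Kinetochore and regulator genes had negative medians. Of 32 kinetochore and checkpoint genes 17 fell and 4 rose (median -0.66), 14 to 17 lower with a library left out, and under equal coding sums 9 fell and 9 rose. CENPA, the centromeric histone H3 variant, had 5.00 and 4.91 FPKM in spindle and 22.0 and 21.6 in input (-1.94, SE 0.10, limma adjusted p = 0.000211). SKA1, of the complex that couples kinetochores to microtubules, had 2.76 and 2.20 in spindle and 14.2 and 15.8 in input (-2.20). CENPC, the large protein at the kinetochore base, rose by 0.93. Of 21 mitotic kinases, cyclins and chromosomal passengers 12 fell and 0 rose (median -0.89, 7 to 8 lower with a library left out), and under equal coding sums 8 fell and 4 rose. BIRC5, survivin, had 12.9 and 11.4 in spindle and 76.5 and 78.4 in input (-2.58), and CCNA2, cyclin A2, fell by 1.96. Cohesin and condensin genes lay near coding genes at large, as 7 of 21 fell (33.3%, beside 37.4%; median -0.23) and 2 rose, with 3 lower when a library was left out, and under equal coding sums 12 rose and 1 fell. NIPBL, the large cohesin loader, had 23.1 and 21.1 in spindle and 6.67 and 6.99 in input (1.56), while CDCA5, sororin, had 5.22 and 5.22 in spindle and 24.5 and 24.0 in input (-2.02).

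Motors and tubulins varied among themselves. Of 20 dynein and dynactin genes 15 fell and 1 rose (median -0.59), 9 to 10 lower with a library left out, and under equal coding sums 4 fell and 4 rose with a median of 0.08. DYNLL2, a light chain, had 10.0 and 9.58 FPKM in spindle and 36.6 and 37.5 in input (-1.82). The heavy chain DYNC1H1 had 104 and 101 in spindle and 51.9 and 50.0 in input, without overlap, and was not called (1.00, SE 0.37, limma adjusted p = 0.0621, or 0.000151 in the STAU1-KO libraries alone). Of 14 tubulins 7 fell and 3 rose (median -0.80), 2 to 3 lower with a library left out, and under equal coding sums 2 fell and 4 rose. TUBA1B, a main alpha-tubulin with near-identical copies, had 74.6 and 74.2 in spindle and 327 and 315 in input (-2.09, limma adjusted p = 0.00109). TUBG2, a gamma-tubulin, had 10.4 and 11.8 in spindle and 3.96 and 4.54 in input (1.21). Kinesins gave 8 higher and 5 lower of 30 (median -0.10 beside -0.07 over all members), or 6 higher and 1 to 2 lower with a library left out, and 17 and 2 under equal coding sums.

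Splicing genes divided into speckle factors and core particles. Of 27 SR proteins and speckle scaffolds 11 rose and 4 fell (median 0.28), or 22 and 0 under equal coding sums, whereas of 40 core snRNP proteins 20 fell and 1 rose (median -0.68), and under equal coding sums 16 fell and 14 rose. CLK2, a kinase of SR proteins, had 27.3 and 27.1 FPKM in spindle and 9.43 and 9.52 in input (1.43, SE 0.10, limma adjusted p = 0.000255). SNRPF, a small protein of the Sm ring, had 6.67 and 5.91 in spindle and 27.4 and 26.8 in input (-1.95), and SNRPG of the same ring 14.6 and 17.8 in spindle and 69.6 and 68.6 in input (-2.04). Of 24 hnRNP genes 4 rose (16.7%) and 7 fell (29.2%), beside 19.8% and 37.4% of coding genes. When a library was left out 1 was higher and 3 to 4 lower, and under equal coding sums 12 were higher and 3 lower. HNRNPD, which binds AU-rich elements, rose by 1.03. Among 12 Staufen and nonsense-mediated decay genes 6 rose and 0 fell (median 0.42, 4 higher with a library left out). SMG1, the kinase of the decay pathway, which has many partial copies, rose by 1.35.

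Replication-dependent histone mRNAs, which end in a stem-loop in place of a poly(A) tail, were lower in spindle. Of 46 members 34 fell and 0 rose (median -1.22, 22 to 29 lower with a library left out), and under equal coding sums 15 fell and 2 rose. The share lower was 73.9%, beside 37.4% of coding genes and 68.2% in the shortest bin of coding length, whose median was -0.91. HIST1H4C had 39.7 and 38.8 FPKM in spindle and 214 and 194 in input (-2.34, SE 0.21, limma adjusted p = 0.000442). Copies of a histone type are near-identical in coding sequence, and how reads were shared among them is not given in the sources used here.

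**Figure D4:**
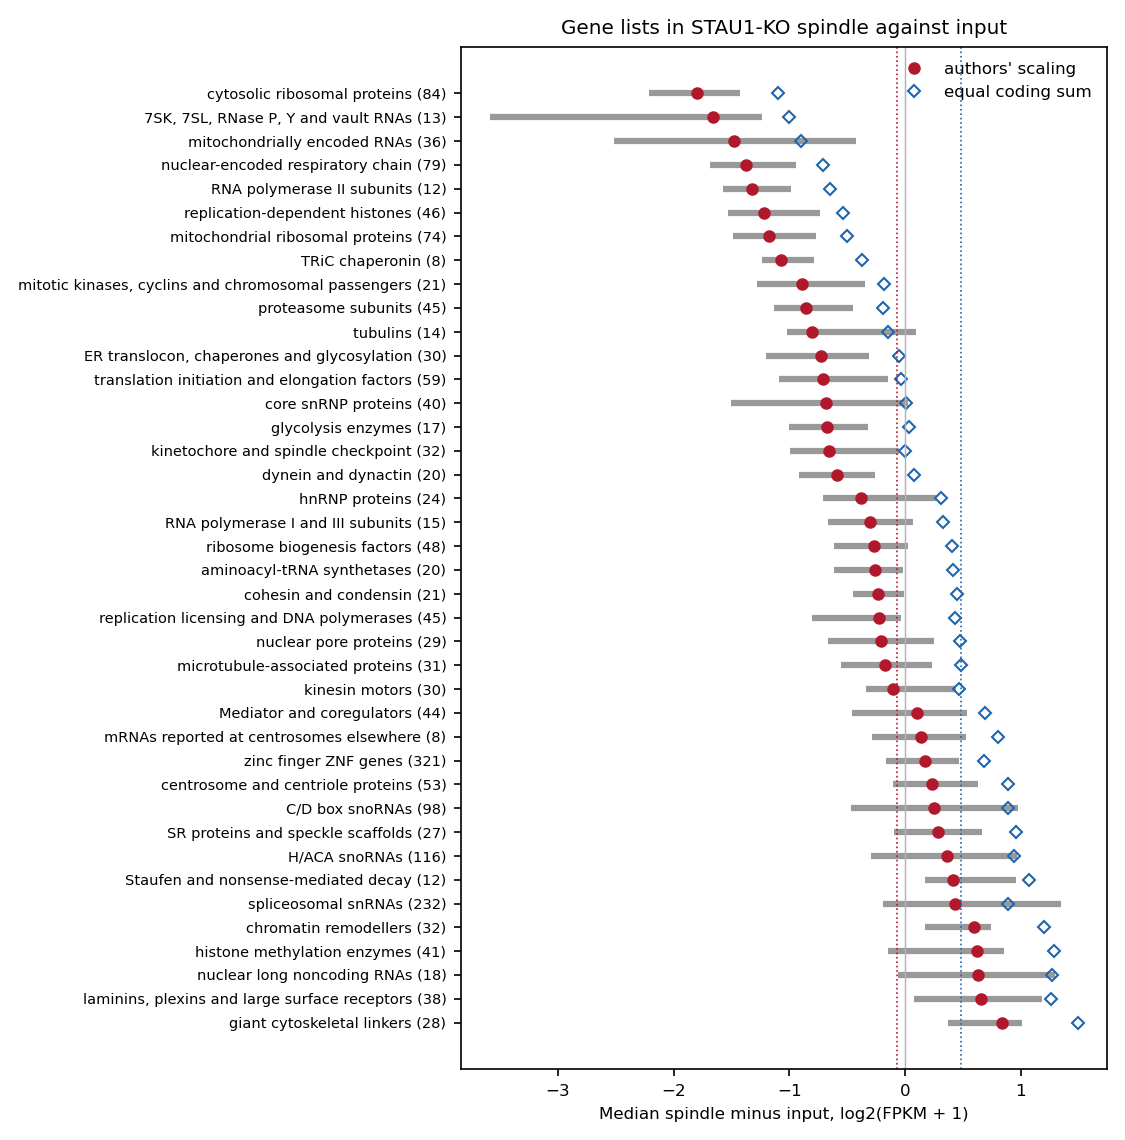
Median spindle minus input change on the log2(FPKM + 1) scale of 40 gene lists in STAU1-KO cells, with the authors' scaling (filled circles, grey bars from the lower to the upper quartile) and with equal protein-coding sums (open diamonds), tested members in brackets and the median of all members dotted. Cytosolic ribosomal proteins stand lowest at -1.80 and giant cytoskeletal linkers highest at 0.84, and equal coding sums move every list up.

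Of 36 tested RNAs made inside mitochondria 18 fell and 3 rose in spindle, with most calls among the mRNAs, and 8 to 12 were called lower with a STAU1-KO library left out. Together the 37 listed RNAs held 0.578% and 0.398% of FPKM in spindle and 2.06% and 2.0% in input. Mitochondrial DNA is copied into long transcripts from each strand, and tRNAs are cut out from between the mRNAs. Of the 12 mRNAs on the plus strand 11 fell. MT-ND3, a subunit of complex I, had 18.4 and 7.94 FPKM in spindle and 546 and 573 in input (-5.41, SE 0.40, limma adjusted p = 0.000291). MT-CO1, of cytochrome c oxidase, had 253 and 207 in spindle and 1779 and 1624 in input (-2.89) and kept its call in 3 of the 4 fits that left out a STAU1-KO library. The exception was MT-ND5, also of complex I, with 196 and 93.8 in spindle and 147 and 120 in input, whose libraries overlapped (0.03, SE 0.55, limma adjusted p = 0.973). MT-ND6, the only mRNA on the minus strand, had 44.6 and 36.2 in spindle and 155 and 111 in input (-1.68), and lost its call without any 1 STAU1-KO library (limma adjusted p 0.067 to 0.129).

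Mitochondrial rRNAs and tRNAs rested on fewer reads. MT-RNR1, the small rRNA, had 6.22 and 7.20 FPKM in spindle and 125 and 98.7 in input (-3.86), and MT-RNR2, the large one, 13.5 and 14.9 in spindle and 121 and 94.8 in input (-2.83). Neither call held without any 1 STAU1-KO library (limma adjusted p 0.0935 to 0.116 for MT-RNR1 and 0.124 to 0.161 for MT-RNR2). Of 21 tested tRNAs 3 rose and 4 fell. MT-TS1, of the minus strand, had 113 and 64 reads in spindle and 33 and 49 in input, or 145 and 116 FPKM in spindle and 36.5 and 47.2 in input (1.62), and kept its call in 2 of 4 fits with a library left out. MT-TG had 12 and 5 reads in spindle and 1 and 1 in input (limma adjusted p = 0.00433). Its FPKM thus rests on at most 12 reads in a library, and no fold is given for it.

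**Figure D5:**
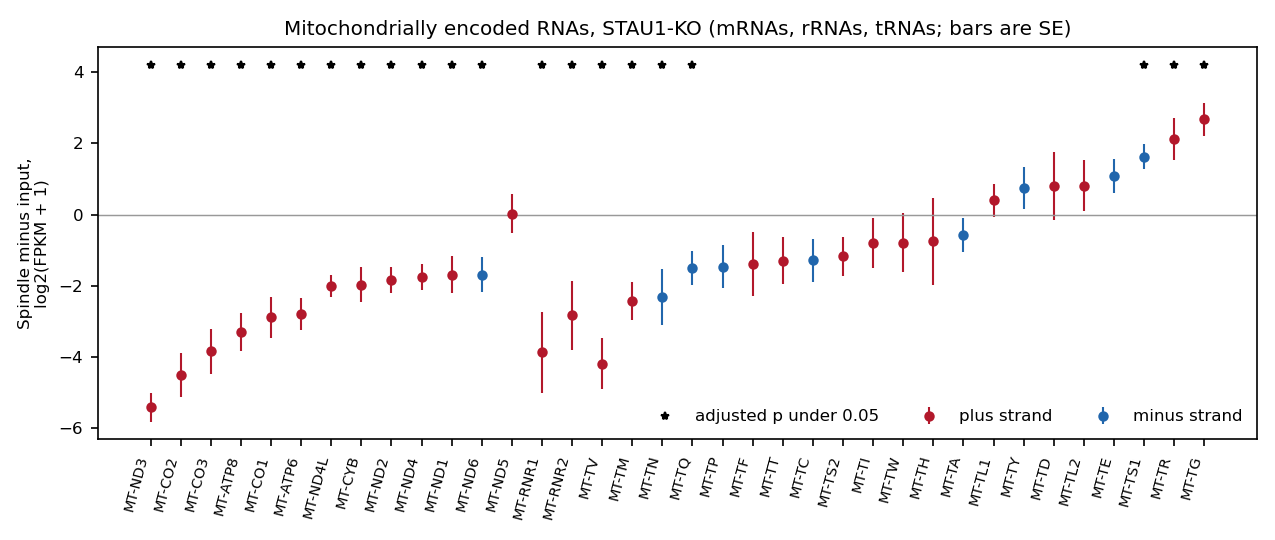
Spindle minus input change on the log2(FPKM + 1) scale with its SE for the 36 tested mitochondrially encoded RNAs in STAU1-KO cells, ordered within mRNAs, rRNAs and tRNAs and coloured by strand, stars marking an adjusted p under 0.05. Among mRNAs only MT-ND5 lies at 0.03, and the tRNAs spread to both sides. The outermost tRNAs rest on few reads, as MT-TV had 1 and 0 in spindle and MT-TG 1 and 1 in input.

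Abundant structured noncoding RNAs held the largest single decrease among all members. Of 13 tested members of the list of 7SK, 7SL, RNase P, Y and vault RNAs 7 fell and 0 rose (median -1.66), or 4 to 5 with a library left out. RPPH1 (chromosome 14), the RNA of nuclear RNase P, which trims tRNA precursors, had 126 and 154 FPKM in spindle and 15959 and 15289 in input (-6.80, SE 0.52, limma adjusted p = 0.000309). RMRP, the related RNA of RNase MRP, was not called (0.30) and held 7.57% and 8.93% of spindle FPKM and 4.57% and 4.46% of input FPKM. RN7SK had 4046 and 4681 FPKM in spindle and 54199 and 50220 in input (-3.58), and its call was lost without any 1 STAU1-KO library (limma adjusted p 0.144 to 0.29). TERC, the telomerase RNA, had 184 and 182 in spindle and 407 and 401 in input (-1.14), and it kept its call in 1 of those 4 fits (largest limma adjusted p = 0.0538).

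Y RNAs, which bind the Ro60 protein and are known mainly from the cytoplasm, were lower in spindle. The sequences of RNY1 and RNY4 (GENCODE v29, GRCh38) are given because both fell and share a stem. Their first 11 bases are identical and in capitals.
RNY1, chr7:148987136-148987248, minus strand: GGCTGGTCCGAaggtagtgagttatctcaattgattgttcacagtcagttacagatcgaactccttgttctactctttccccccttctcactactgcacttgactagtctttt
RNY4, chr7:148963315-148963410, plus strand: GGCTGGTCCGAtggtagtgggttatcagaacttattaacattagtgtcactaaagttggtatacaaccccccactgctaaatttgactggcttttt

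RNY1 had 5.49 and 5.53 FPKM in spindle (7 and 5 reads) and 213 and 243 in input (315 and 412 reads), a change of -5.13 (SE 0.11, limma adjusted p = 6.15e-05). RNY4 had 0 and 1.30 FPKM in spindle and 9.53 and 18.0 in input (limma adjusted p = 0.00159). RNY5 had 0 and 1.58 FPKM in spindle and 17.4 and 20.2 in input (limma adjusted p = 0.000825). The spindle values of RNY4 and RNY5 stand for 0 and 1 read each, and no fold is given for them. All 3 were called in every fit that left out a STAU1-KO library. RNY3, with at most 1.5 FPKM in any of the 4 libraries, did not pass the filter. The locus RNY1P9, a pseudogene of RNY1, went the other way on 3 and 5 reads in spindle and 0 and 1 in input (limma adjusted p = 0.00689).

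Spliceosomal RNAs were more often higher than lower in spindle, with 52 of 232 up and 2 down (25 to 36 up with a library left out), and the U5 family among them. The share up was 22.4%, not above the 24.0% of all members, and the share down 0.862%, beside 29.9%. Of the numbered U6 loci described below, 20.5% were up. U5 pairs with the exon ends at the splice site, and its genes are near-identical copies, so that the split of reads among them is uncertain. Of the 5 listed U5 genes 4 rose. RNU5A-1 had 577 and 532 FPKM in spindle and 199 and 237 in input (1.35). RNU5B-1 had 580 and 537 in spindle and 78.2 and 143 in input (2.39), and RNU5E-1 had 637 and 555 in spindle and 161 and 239 in input (1.60, SE 0.30, limma adjusted p = 0.00561). In each of them both spindle libraries lay above both inputs. RNU5D-1 had 77.9 and 76.5 in spindle and 23.0 and 27.5 in input (1.58). RNU5F-1, with 164 and 121 in spindle and 25.4 and 30.1 in input, was not called (2.30, SE 1.15, limma adjusted p = 0.135, or 0.00055 in the STAU1-KO libraries alone). With a STAU1-KO library left out, 0 to 3 of the 5 were called. The U4 genes RNU4-1 and RNU4-2 had smaller differences that were not called (0.46 and 0.47, with limma adjusted p of 0.00186 and 0.00262 in the STAU1-KO libraries alone), and RNU11, of the minor spliceosome, had 57.5 and 60.6 in spindle and 49.0 and 63.1 in input, which overlap (0.09). Of 166 numbered U6 loci, most of them copies that may share reads, 34 rose and 1 fell, or 17 to 24 higher with a library left out.

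Guide RNAs for rRNA modification went both ways. Of 116 H/ACA snoRNAs, which guide pseudouridylation, 34 rose and 9 fell (median 0.36), and of 98 C/D snoRNAs, which guide methylation, 17 rose and 9 fell (median 0.25). The shares higher were 29.3% and 17.3%, beside 24.0% of all members, and the shares lower 7.76% and 9.18%, beside 29.9%. With a STAU1-KO library left out 21 to 26 and 8 to 13 were called higher. SNORA49 had 133 and 116 FPKM in spindle and 27.5 and 28.9 in input (2.10, SE 0.13, limma adjusted p = 0.000226). SNORD39 had 228 and 187 in spindle and 46.2 and 43.8 in input (2.18). SNORD99 went the other way with 18.0 and 18.6 in spindle and 87.6 and 85.4 in input (-2.18, SE 0.12, limma adjusted p = 0.000225). SNORD3A, the abundant U3 RNA, had 8168 and 8368 in spindle and 2860 and 2507 in input, without overlap, and was not called (1.63, limma adjusted p = 0.0746, or 0.00036 in the STAU1-KO libraries alone).

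The microRNA class was led by a pair of loci that lie in the ribosomal DNA repeats. MIR3687-2 had 23232 and 26715 FPKM in spindle and 1745 and 1600 in input (3.90, SE 0.89, limma adjusted p = 0.0116). MIR3648-2 had 12918 and 13593 in spindle and 1327 and 1296 in input (3.34, SE 0.78, limma adjusted p = 0.0125). Spindle and input were far apart for both, yet both calls were lost without any 1 STAU1-KO library (limma adjusted p 0.0827 to 0.108 for MIR3687-2 and 0.0913 to 0.109 for MIR3648-2). RNA28S5, from the same kind of repeat, was higher in both spindle libraries too. Whether the reads of these microRNA loci come from precursor, hairpin or mature microRNA was not tested, and copies of the repeat share reads.

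The mature sequences of 3 microRNAs with large changes at their loci were at hand in RefSeq (GRCh38.p14), and they are shown to give the letters behind these names. The seed, bases 2 to 8, is in capitals, and no seed is shared among the 3.
hsa-miR-3648, chr21:8987026-8987046, plus strand: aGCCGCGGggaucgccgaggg
hsa-miR-3153, chr9:89312274-89312296, plus strand: gGGGAAAGcgaguagggacauuu
hsa-miR-4258, chr1:154975703-154975719, plus strand: cCCCGCCAccgccuugg

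MIR3153 had 6 and 0 reads in spindle and 36 and 52 in input, or 6.48 and 0 FPKM in spindle and 33.5 and 42.2 in input (-3.82, limma adjusted p = 0.0102), and lost its call in 1 of the 4 fits with a library left out (largest limma adjusted p = 0.0559). MIR4258 had 0 and 0 reads in spindle and 16 and 12 in input (limma adjusted p = 0.0266), and its call was lost without any 1 STAU1-KO library (limma adjusted p 0.0793 to 0.115). MIR621 had 2 and 2 reads in spindle and 38 and 62 in input (limma adjusted p = 0.000296). On the other side MIR1205 had 15 and 14 reads in spindle and 1 and 1 in input (limma adjusted p = 0.000282). These loci rest on 1 to 62 reads where they were detected, in libraries of 6.84 M to 14.6 M reads.

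Many nuclear long noncoding RNAs were higher in spindle and several hosts of snoRNAs lower. NEAT1 (chromosome 11), which builds paraspeckles in the nucleus, had 309 and 323 FPKM in spindle and 11.3 and 11.4 in input, a change of 4.68 (SE 0.28, limma adjusted p = 0.000226). MIR663AHG had 106 and 116 in spindle and 14.9 and 15.5 in input (2.79), and KCNQ1OT1, an imprinted antisense RNA, 4.64 and 4.59 in spindle and 1.25 and 1.20 in input (1.34). Of 18 long noncoding RNAs listed as nuclear 11 rose and 4 fell (median 0.63, 8 to 10 higher with a library left out). The lowest of them, DANCR, had 11.2 and 9.90 in spindle and 34.3 and 35.3 in input (-1.63). DANCR is itself a snoRNA host and is counted in both groups, so they are not separate. SNHG16, a host of snoRNAs that is spliced and exported, had 20.8 and 22.7 in spindle and 105 and 108 in input (-2.24, SE 0.12, limma adjusted p = 0.000211). Of 21 such snoRNA host lncRNAs 10 fell and 2 rose (median -0.34), or 6 to 7 lower with a library left out, and under equal coding sums 3 fell and 9 rose.

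RNAs named for an intron had the highest median of the lncRNA groups described here. Of 40 lncRNAs with the suffix for intronic transcripts 25 rose and 0 fell (median 0.97, 16 to 21 higher with a library left out). TSSC1-IT1 had 6.66 and 8.35 FPKM in spindle and 0 and 0.463 in input (2.81, limma adjusted p = 0.000538), on 54 and 48 reads in spindle and 0 and 5 in input, and passed the filter only through spindle. Of 216 lncRNAs named as antisense 70 rose and 33 fell (median 0.24), and of 107 with a LINC symbol 51 rose and 18 fell (median 0.56), or 34 to 41 and 27 to 30 higher with a library left out. Intronic transcripts overlap the unspliced RNA of their host genes, and the kit keeps strand, but whether counting used it is not given in the sources used here. Reads of introns were therefore not separated from these RNAs.

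The spindle-to-input change was then set against that of WT cells, the study's question being what the loss of STAU1 does to spindle RNA. Of 15803 members 69 differed (0.437%, limma adjusted p under 0.05), 62 with a more positive change in STAU1-KO cells and 7 with a more negative one, and 3274 had an unadjusted p under 0.05. The smallest adjusted p was 0.0401 and the largest among the 69 was 0.0480, so all calls lay close to the threshold. Leaving out any 1 STAU1-KO library, or a WT input library, left between 0 and 2 calls, while leaving out WT spindle replicate 1 or 2 gave 3982 or 4013. The 2 WT spindle libraries differed more than any other pair, with an SD of the replicate difference of 0.667 on the log2 scale, against 0.33 in STAU1-KO spindle. Leftover ribosomal RNA made up 13.6% of recovered reads for the first of this WT pair and 46.3% for the second. Protein-coding genes made up 72.8% and 47.0%, and summed FPKM was 323825 and 617169. The genotype differences below use the mean of this uneven pair, and the part of ribosomal RNA in them was not tested.

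Among the 69, TSPAN6, a membrane tetraspanin, had 7.76 and 7.07 FPKM in STAU1-KO spindle and 12.1 and 13.7 in STAU1-KO input, against 1.63 and 1.56 in WT spindle and 13.3 and 12.4 in WT input. Its change was -0.72 in STAU1-KO cells and -2.42 in WT cells, a difference of 1.69 (SE 0.14, limma adjusted p = 0.0401). CNIH1, a cargo receptor of the early secretory pathway, had 20.1 and 19.4 FPKM in STAU1-KO spindle and 40.0 and 41.7 in STAU1-KO input, against 4.64 and 4.12 in WT spindle and 39.5 and 43.2 in WT input, a difference of 1.96 (SE 0.15, limma adjusted p = 0.0401). In both genes the input libraries of the genotypes lay close together, and the STAU1-KO spindle libraries lay above the WT ones. SERINC1, a membrane protein, was not called within STAU1-KO cells (0.21, or limma adjusted p = 0.0153 in the STAU1-KO libraries alone), while its WT change was -1.47, a difference of 1.67. The Sm proteins SNRPF and SNRPG differed by 1.53 and 1.44, and MRPL54 by 1.29. STAU1 itself differed by 2.01 (SE 0.23, limma adjusted p = 0.0480). SDC3, a syndecan, was on the negative side, with a change of -0.62 in STAU1-KO cells and 0.48 in WT cells, a difference of -1.09. As lists, the respiratory chain had a median difference of 0.94 with 6 of 79 called and cytosolic ribosomal proteins one of 0.75 with 3 of 84 called, beside 0.05 over all members and 0.10 over coding genes. Other lists stood as high, namely endoplasmic reticulum translocon, chaperones and glycosylation at 1.04, replication-dependent histones at 1.01 and TRiC at 0.87. Negative medians included giant linkers of the cytoskeleton at -0.20 and laminins, plexins and large surface receptors at -0.29. The mitochondrially encoded RNAs stood at -0.99.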

How the data were processed

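Total RNA of 8 HCT116 libraries, 2 in each of 4 groups, was sequenced after rRNA depletion. Per the submitters' processing notes, FastQC, TopHat, featureCounts and DESeq2 were used with GRCh37, and roles and versions are not given in the sources used here. The deposited table holds FPKM per library and group, TPM per group, GC as a percent, and lengths in nucleotides. The authors' comparison table holds a base mean (a normalised signal), log2 fold changes, a Wald score and p-values, per the file headers.

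The fit used limma 3.58.1 in R 4.3.3 on log2(FPKM + 1), with 4 group means over all 8 libraries and a trend in the prior variance (4 residual and 2.29 prior degrees of freedom). It was tested on simulated data. Reads per gene were recovered from FPKM and base mean, and all (100%) lay within 0.01 of a whole number. They gave depths, and voom weights as an alternative. A count test had been foreseen, but the unit was FPKM. Members and lists were chosen with earlier results of these data known. Besides STAU1 and its paralog, the rule for naming took genes whose libraries did not overlap and whose called change was largest in each direction (10 coding genes, 3 of every other class). From each list it took up to 2 members with the smallest p per direction and an abundant uncalled one, and some genes it picks are not reported here. The U5, Y and mitochondrial RNAs beyond that, MIR3648-2, RNA28S5, RMRP, TERC, RNU11, KIF5B, DDIAS, SPINK9, TMEM212, RPS12 and RPL12 were chosen after their values were seen. Intervals for counts are not given, and the number of reads printed beside low loci limits their precision. Sequences are from RefSeq (GRCh38.p14) and GENCODE v29 (GRCh38), another build than the files', and no position was carried between builds. Left out were genes below the FPKM minimum of 1 in 2 libraries.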

Additional observations from a re-analysis of the deposited data

Results flagged for a closer look

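A gene stood out when its spindle-to-input change differed between STAU1-KO and WT cells in limma's test of that difference (two-sided, Benjamini-Hochberg over 15803 members), and 8 genes named in the report did so. The differences, STAU1-KO minus WT on the log2(FPKM + 1) scale, were 2.01 for STAU1, 1.96 for CNIH1, 1.69 for TSPAN6 and 1.67 for SERINC1. They were 1.53 for SNRPF, 1.44 for SNRPG, 1.29 for MRPL54 and -1.09 for SDC3, with limma adjusted p between 0.0401 and 0.0480. When any 1 STAU1-KO library or WT input library was left out, at most 2 genes of all members kept such a call.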

How the results depend on the processing

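The counts of genes higher and lower in STAU1-KO spindle (3785 and 4724) kept within 1.5 times under most settings. Exceptions were 6689 higher and 1827 lower with equal protein-coding sums, 1434 higher with a mean FPKM of at least 5 (fewer genes tested) and 2504 higher among protein-coding genes alone. Leaving out 1 library gave 2160 to 4934 higher and 3067 to 6108 lower. The 69 genes that differed between genotypes moved more, to 288 with equal coding sums, 490 with a mean FPKM of at least 5, 13 with no filter, 24 with no trend in the prior variance, 495 among coding genes, 213 and 123 with a pseudocount of 0.1 and 0.5, 429 with voom weights on recovered reads, and 0 to 4013 with 1 library left out. The cause of these shifts was not tested. Deviations of same-numbered libraries correlated at 0.024 in STAU1-KO and -0.047 in WT cells, so no shared deviation was seen. Whether same-numbered libraries came from the same culture cannot be told from this. A replicate block gave 3263 higher, 4135 lower and 0 genes that differed between genotypes. Of 2042 values of named genes under alternatives, 1905 kept their direction and side of the threshold. The sign turned for MT-ND5 (-0.028 with voom, -0.50 to 0.55 with 1 library left out) and RNU11 (-0.093 to 0.27 with 1 library left out), both uncalled. The foreseen quasi-likelihood count test was not run, since the unit was FPKM. The voom fit and, for the counts within STAU1-KO cells, the fits without a WT library were chosen after seeing the data. Loci with few reads are limited by depth, and 2 libraries per group limit all calls.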
